A study of Mus musculus with 2 samples.

Results

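Dnm3 encodes dynamin 3, a large GTPase that pinches membrane vesicles free. On the opposite strand inside it lies Dnm3os, a long noncoding RNA. The peaks that the LIM-homeodomain transcription factor ISL1 formed over this locus in pacemaker cells are described here. They were chosen by position, as every peak whose start lay on chromosome 1 between 163800000 and 164300000 (mm9), a stretch of 500 kb that also covers the noncoding gene 2810442N19Rik. The rule gave 6 of the 1483 peaks analysed. The stretch was itself selected on the measured peak list, because peaks had been seen in it. Number, closeness, scores and annotation of the 6 are therefore given as a description, with no test.

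The cells came from the sinoatrial node, the pacemaker of the heart, of neonatal ICR mice aged postnatal day 1 to 3. The mice carried Hcn4-H2BGFP, a green fluorescent histone reporter driven from the pacemaker channel gene Hcn4, and green cells were sorted by flow cytometry. The series held 1 ISL1 immunoprecipitate and 1 input DNA library of the same genotype and age. The peaks come from the 1 ISL1 library, without a replicate, and the input library was not analysed here. Of the 1483 peaks, 0 had the pacemaker genes Hcn4, Tbx3 or Shox2 nearest and 2 had Isl1 nearest, and a peak list does not measure the cells' gene expression.

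Dnm3os is the precursor of a microRNA cluster. In mice the transcript gives rise to miR-199a and miR-214, which are best known from bone growth, from fibrosis and from heart muscle. In the mouse heart miR-214 was described as a brake on calcium overload, and in rodents miR-199a-3p as a driver of heart muscle cell division. Dnm3os in mouse is known as a target of the basic helix-loop-helix factor TWIST1. Because Dnm3os and Dnm3 are read in opposite directions, a binding site inside an intron of Dnm3 can lie before, inside or after the noncoding gene.

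The mature microRNAs of the cluster are shown because the promoter peak lies at the start of the transcript that carries them. They are RefSeq sequences on the plus strand of GRCm38.p6, with the seed (bases 2 to 8) in capitals.
mmu-miR-199a-5p: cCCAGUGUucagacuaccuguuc
mmu-miR-199a-3p: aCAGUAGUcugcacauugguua
mmu-miR-214-5p: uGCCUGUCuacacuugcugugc
mmu-miR-214-3p: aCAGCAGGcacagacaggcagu
The first pair, from Mir199a-2, lies at chr1:162217844-162217866 and chr1:162217883-162217904. The second pair, from Mir214, lies at chr1:162223397-162223418 and chr1:162223438-162223459. These 4 arms have 4 different seeds. Among 1679 mature mouse microRNA names in the sequence table, miR-199a-3p shares its seed with miR-199b-3p and miR-214-3p with miR-761. All 22 bases of miR-199b-3p, from Mir199b on chromosome 2, are those of miR-199a-3p. Both miR-199a arms are also given, with the same sequences, by Mir199a-1 on chromosome 9. Mir199b and Mir199a-1 were each nearest to 0 peaks.

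The peak at the start of Dnm3os lay at chromosome 1 164147749 to 164147893 (mm9). Its score was 19.2 and its centre lay 0.067 kb downstream of the Dnm3os transcription start site (TSS). It was annotated as a promoter peak, not of Dnm3os but of Mir199a-2, whose hairpin follows closely. In the mm9 positions of the peak list the peak ran from 5 bases before the TSS to 139 after it. In GRCm38.p6 the Mir199a-2 hairpin of 110 bases starts 191 bases after the same TSS, which puts its start 52 bases beyond the end of the peak. The spacing could be set side by side because it did not differ between the builds. From the Dnm3os TSS to the start of Mir214 there were 5745 bases in both, and from the 2810442N19Rik TSS to that of Dnm3os 212654 in both. Mir214 follows Mir199a-2 by 5554 bases from start to start.

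The Dnm3os promoter is shown because a peak lies on it. It is the RefSeq sequence chr1:162217373-162217672 (GRCm38.p6, plus strand), from 250 bases before the TSS to its end 50 bases on. The capitals mark the 55 bases that the peak covers, reckoned from its distance to the TSS.
Dnm3os: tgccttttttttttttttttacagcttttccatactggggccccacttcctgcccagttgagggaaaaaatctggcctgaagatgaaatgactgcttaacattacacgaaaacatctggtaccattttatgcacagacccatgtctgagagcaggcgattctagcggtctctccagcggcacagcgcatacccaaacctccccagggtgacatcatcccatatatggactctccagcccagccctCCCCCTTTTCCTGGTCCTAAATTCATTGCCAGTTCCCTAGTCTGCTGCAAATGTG
The sequence is that of the reference strain and not of the ICR mice used. The remaining 90 bases of the peak lie beyond the printed window. G and C made up 48.7% of the window and 49.1% of the part under the peak, against a median of 52.7% over 32851 promoters of the same length (quartiles 45.7% and 61.7%).

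ISL1, like other homeodomain proteins, is known to bind sites with the core TAAT. The window held TAAT 1 time, on the minus strand, starting 150 bases before the TSS and so outside the peak. Of all 32851 promoters of this length, 58.0% held TAAT on either strand. In the 55 bases that correspond to the searched part of the peak, 12.3% held it. On neither strand was there a match for CTAATG, which 7.36% of all promoters held. The same was true of the paired core TAATTA, held by 5.29%. The MEIS motif TGACAG, held by 19.2%, and the GATA motif AGATAA, held by 11.2%, also had no match on either strand. A CArG box, the site of serum response factor, was present as CCATATATGG, starting 33 bases before the TSS and so before the peak. It was found in 1.63% of all promoters. The E-box CANNTG, the core bound by TWIST1 and its relatives, occurred 3 times. It was spelled CAGTTG at 196 bases and CATCTG at 138 bases before the TSS, and CAAATG, within the peak, at 42 bases after it. Of all promoters 72.3% held CANNTG, and 20.96% held it in the same 55 bases. The search ended 50 bases after the TSS, so the remaining 90 bases of the peak, its centre included, were not searched. No match overlapped another. The motifs were chosen with the sequence in view, and a match is a run of letters and not a measured binding site.

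The authors' peak score gives the height of each peak on a scale that was not stated. Each score in the list was a whole number of steps of 1.37, to the 3 digits given, so that 19.2 stands for 14 steps. If a step is 1 tag, the score of the Dnm3os peak has an exact Poisson 95% interval of 10.5 to 32.1, which covers counting error only.

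Set against other promoter peaks, the Dnm3os peak was among the highest. Of the 48 peaks with the promoter annotation (3.24% of the list), it tied for the second highest score. Among the 47 others 1 was higher, 2 were equal and 44 were lower (range 8.21 to 23.3, median 12.3, quartiles 11.6 and 15.1). The higher one, of 23.3, lay 0.067 kb upstream of the noncoding gene 8430436N08Rik. The interval of the Dnm3os score holds the median of the others, so the rank describes this library. Of the 48 promoter peaks 5 were centred downstream of the TSS, that of Dnm3os included, and 43 upstream. Their distances ran from -0.918 kb (Daam1, upstream) to 0.212 kb (1600014C10Rik, downstream). The promoter annotation thus took in peaks farther upstream than downstream. The split between the sides therefore cannot show whether a downstream centre is unusual. By the type of the nearest gene, 6 lay at noncoding genes, 40 at protein-coding genes and 2 at pseudogenes. The other 5 noncoding promoter peaks belonged to 8430436N08Rik (23.3 and 12.3), 2900009J06Rik (13.7), 4930444M15Rik (13.7) and B430010I23Rik (10.9). Of the 48, 1 was annotated to a microRNA transcript, that at Dnm3os.

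**Figure D1:**
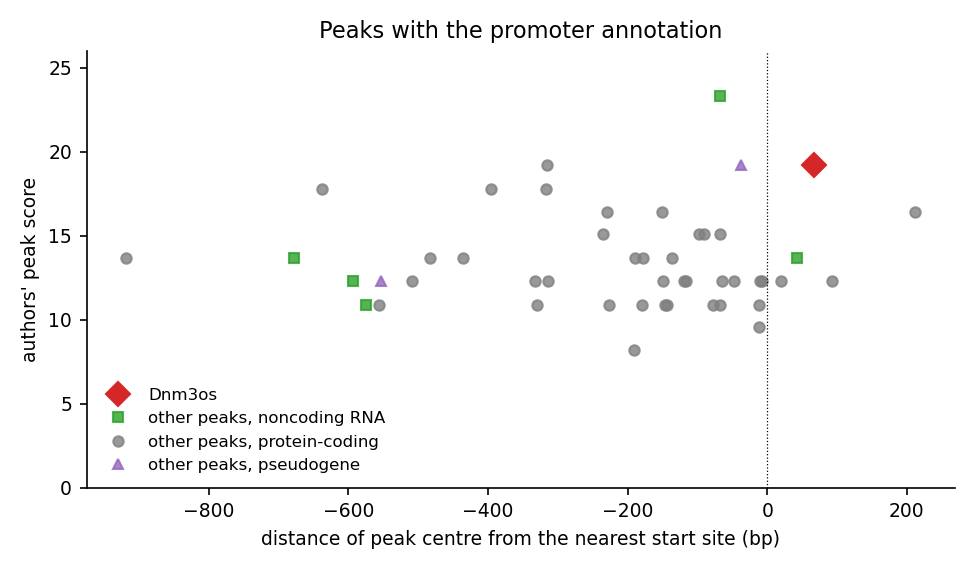
Score of each of the 48 peaks with the promoter annotation against the distance of its centre from the nearest start site in bp; the red diamond is Dnm3os and the other symbols are the other peaks by gene type. The Dnm3os peak, at 19.2, lies to the right of the start site and below 1 other peak, at 23.3.

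Another 4 of the 6 peaks lay towards the 3′ end of Dnm3, where 2810442N19Rik is found, and 3 of these were in late introns of Dnm3. Dnm3 is read towards lower coordinates, so its last introns have the lowest. The peak of highest score in the locus, 24.6, lay in intron 16 of 19 at chromosome 1 163974492 to 163974636. Its neighbour of 20.5 lay in the same intron at 163975122 to 163975266. A peak of 21.9 lay in intron 17 at 163948323 to 163948467. The remaining peak of these 4, of 13.7, lay at 163947226 to 163947370 and was annotated to the transcript end of 2810442N19Rik, 12.2 kb downstream of that gene's TSS. The 3 intronic peaks also had 2810442N19Rik nearest, at 39.5, 40.1 and 13.3 kb downstream of its TSS. What 2810442N19Rik does is not described in the sources used here.

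The last peak stood apart in the earlier part of Dnm3. It had a score of 13.7 and lay in intron 7 at chromosome 1 164243983 to 164244127, 90.6 kb downstream of Mir214, its nearest start site. Between it and the Dnm3os peak there were 96.2 kb from start to start.

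**Figure D2:**
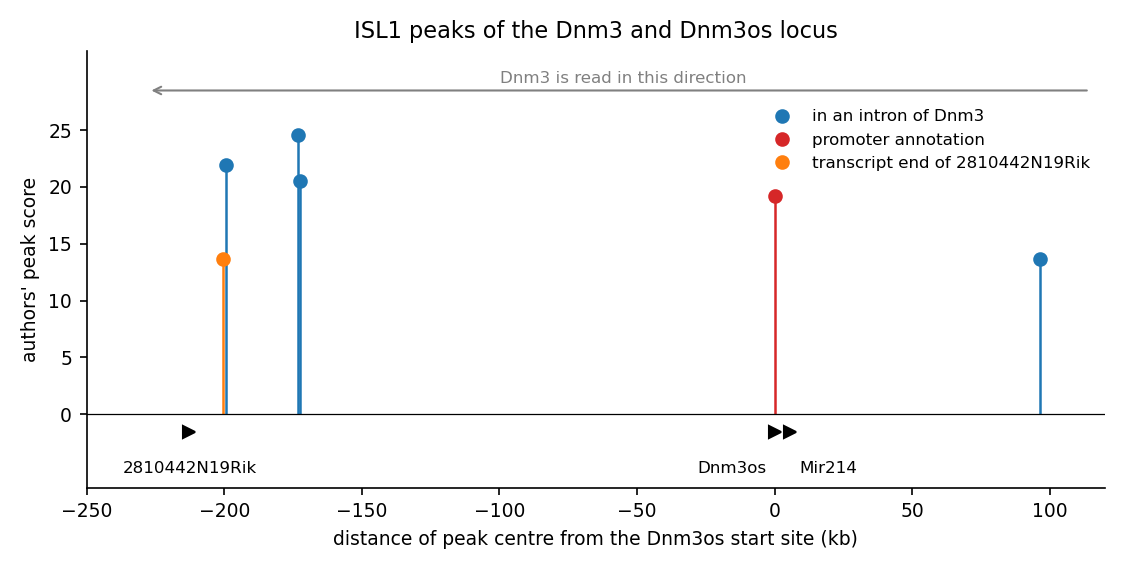
Score of each of the 6 peaks of the locus against the distance of its centre from the Dnm3os start site in kb, coloured by the authors' annotation; black arrowheads are the start sites of 2810442N19Rik, Dnm3os and Mir214, and the grey arrow is the direction of Dnm3. Of the 6, 4 lie between 172.6 and 200.5 kb to the left of Dnm3os, 1 at its start and 1 at 96.3 kb to the right.

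The spacing was uneven. From low to high coordinate, the 5 steps between peak starts were 1.097, 26.2, 0.63, 173 and 96.2 kb. The first 4 peaks thus formed 2 close pairs within 28.0 kb, and all 6 spanned 297 kb. The pair in intron 16 was separated by 486 bases from edge to edge and the pair at intron 17 by 953. Close pairs were uncommon in the list: of 1463 steps between neighbouring peaks, 27 were no longer than the 0.63 kb step and 46 no longer than the 1.097 kb step. The median step was 536 kb. Among 31 transcripts whose introns held 3 peaks or more, 11 had a step of 1 kb or less between intronic peaks, Dnm3 included. A close pair was thus not particular to Dnm3. Chromatin had been sheared to 100 to 400 bp, and whether each close pair is 2 binding sites was not tested.

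The scores of the 6 peaks were 13.7, 21.9, 24.6, 20.5, 19.2 and 13.7 from low to high coordinate. Their median was 19.85, against 15.1 for the 1477 other peaks (quartiles 12.3 and 17.8) and 13.7 for the other 101 on chromosome 1. The 2 lowest lay just under the list's median and the other 4 above its upper quartile, at or above which lay 436 of all 1483 peaks (29.4%). In the whole list 108 peaks scored higher than the highest, that of 24.6, and on chromosome 1, 5 did. If a step is 1 tag, the 6 scores rest on 10 to 18 tags. The lowest then has an interval of 6.56 to 25.2 and the highest one of 14.6 to 38.9, so the intervals overlap and each holds the list's median. The order of the 6 peaks by score is therefore within counting error.

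**Figure D3:**
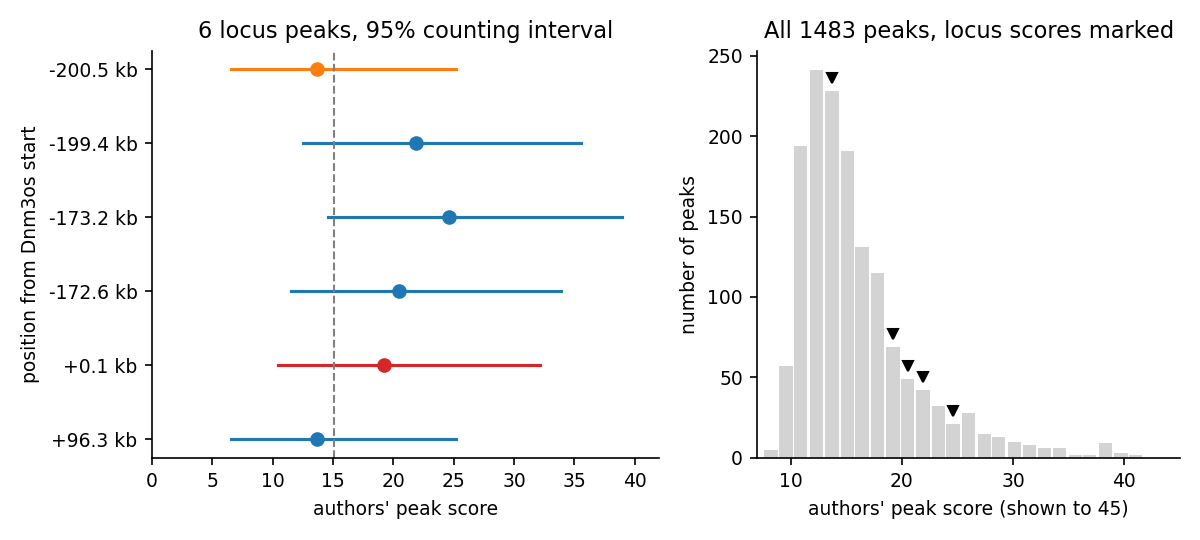
Left, authors' score of each of the 6 peaks, named by its distance from the Dnm3os start, with an exact Poisson 95% interval if a score step is 1 tag; the dashed line is the median of the list, 15.1. Right, number of peaks at each score from 7 to 45, with triangles at the scores of the locus; the 2 peaks of 13.7 share a triangle.

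The focus ratio, a fraction that HOMER gives each peak, was 0.692, 0.909, 0.645, 0.75, 0.667 and 0.625 in the same order. The peak in intron 17 stood out, as 96.1% of the list had a focus ratio at or below its value. The other 5 lay between 0.625 and 0.75. The median of the list was 0.739, with quartiles of 0.667 and 0.818.

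By annotation, 4 of the 6 peaks were intronic (66.7%, exact Clopper-Pearson 95% interval 22.3 to 95.7), 1 was a promoter peak and 1 a transcript end. Of the 1477 others 40.7% were intronic (38.2 to 43.2), which lies inside that interval. None of the 6 was intergenic, against 798 of the others. The stretch was placed over Dnm3, so peaks inside a gene came with that choice. All 6 were listed under noncoding genes, as were 295 peaks in the whole list (19.9%). All 6 lay downstream of the nearest TSS, against 866 of the 1477 others. Their median distance was 26.4 kb, against 83.6 kb for the others. Members of 1 gene share their surroundings, so these counts describe 1 locus and not 6 independent ones.

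Dnm3 itself was listed as the nearest gene of 0 peaks, although 4 were annotated to its introns. Each peak carries a single annotation. The Dnm3os peak, annotated as a promoter, also lay inside Dnm3, between its intronic peaks, and is not among the 4. The list assigns each peak to the closest TSS, and for the 4 intronic peaks that TSS belonged to a noncoding gene. Of 599 intronic peaks in the list whose host gene could be matched, 167 (27.9%) had the TSS of another gene nearest. None of the 4 lay in intron 1, which held 24.6% of the 605 intronic peaks of the list. In transcripts with 10 or more introns, 60 of 380 intronic peaks lay beyond 75 percent of the intron count (15.8%), and 3 of these 60 were in Dnm3.

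Among 31 transcripts whose introns held 3 peaks or more, 8 held more than Dnm3 and 6 others also held 4. The 4 intronic peaks of Dnm3 had a median score of 21.2, and 1 of the 30 other transcripts had a higher one, Filip1l with 21.9 from 3 peaks. Gmds had the same median as Dnm3, from 6 peaks of 10.9 to 38.3. Over all 31 the medians ran from 12.3 to 21.9, with a middle value of 14.4. Unc5c, a netrin receptor gene, had most, with 10 intronic peaks of median score 16.4 over 248 kb. Next came Lrmda with 9 of median 16.4 over 925 kb, against 296 kb for the 4 in Dnm3. Of the 9 in Lrmda 2 had its own TSS nearest, and of the 10 in Unc5c 9. Among the 30 of these transcripts that could be matched to a gene, Dnm3 and Trps1 were the 2 with no intronic peak listed under their own TSS.

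**Figure D4:**
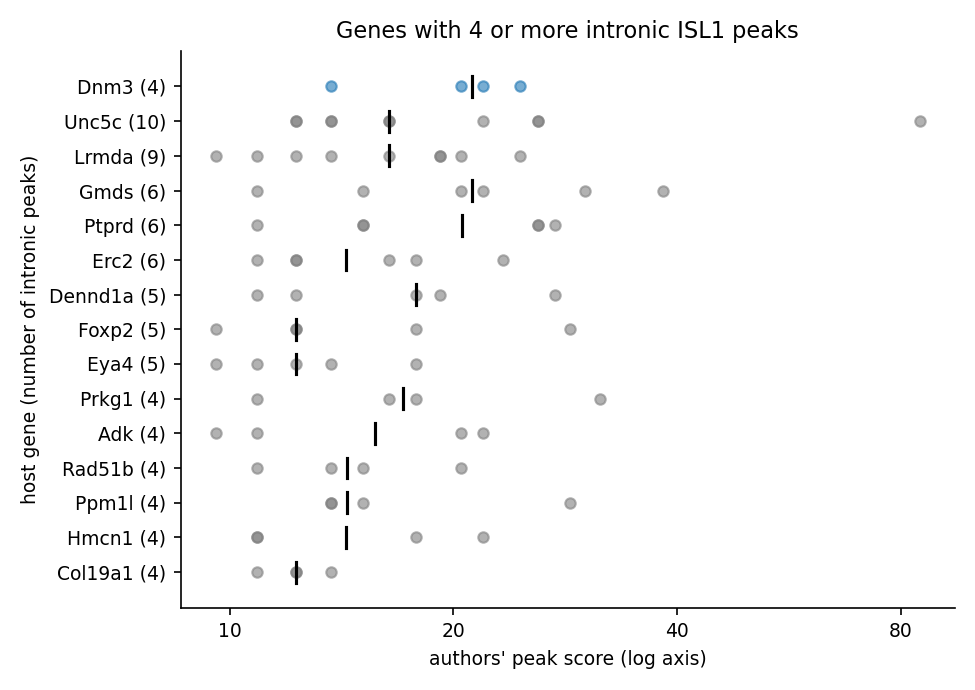
Authors' peak score, on a log axis, of every intronic peak in the 15 genes with 4 or more of them; each point is a peak, overlapping points are darker, black bars are medians and the number of peaks follows each gene name. Dnm3, in blue at the top, has a median of 21.2 and no peak under 13.7 or over 24.6.

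With 6 peaks in 500 kb the stretch held 12 peaks per Mb, against 0.568 per Mb over chromosome 1. That was 21.1 times as many, a figure that depends on how the stretch was chosen: widened by 250 kb on each side, it held 12.3 times the density of chromosome 1. In the whole list 24 stretches held 6 or more peaks in the same length, that of Dnm3 included. The next peaks on chromosome 1 lay outside the stretch at some distance. Before it, an intergenic peak of 13.7 was listed under Fasl, the Fas ligand gene, 280 kb from the first of the 6. After it, an intergenic peak of 16.4 was listed under Gorab, a golgin gene, 1056 kb from the last. The outermost of the 6 had scores of 13.7 each.

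In the gene order of GRCm38.p6, Pigc precedes Dnm3 and its noncoding genes and Eef1aknmt and Vamp4 follow. Pigc, Suco, Eef1aknmt, Vamp4, Myoc and Prrc2c were each nearest to 0 peaks. The same was true of Prrx1, a homeobox gene farther along.

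Genes linked to the locus by function were looked up in the rest of the list. Over 26216 mouse genes, 2.57% were nearest to a peak within 100 kb. Of a list of 33 genes drawn up for endocytosis, dynamin relatives included, 1 was (3.03%), close to that share. A role of each listed gene in endocytosis was not tested. With genes that hold a peak in an intron or exon counted too, 3.19% of all genes and 2 of the 33 were hit, and Dnm3 was the one added. The Dnm3 stretch had been chosen because it held peaks, so that added hit was fixed in advance. The gene near a peak was Sh3glb1, an endophilin family gene, with an intergenic peak of 38.3 at 55.4 kb (chromosome 3 144327801 to 144327945). The sister genes Dnm1 and Dnm2, which encode the neuronal and the ubiquitous dynamin, had 0 peaks. The same held for Dnm1l, for the amphiphysin gene Amph and for Bin1.

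Of 14 genes described as targets of miR-199a or miR-214, 2 were nearest to a peak within 100 kb (14.3%), against 2.57% of all genes. Camk2d, a calcium-dependent kinase and a described target of miR-214, had 3 peaks of 12.3 to 15.1, in introns 2 and 3 and 24.3 kb upstream. Hif1a, the hypoxia factor and a described target of miR-199a, had an intergenic peak of 19.2 at 24.96 kb upstream (chromosome 12 74983826 to 74983970). Slc8a1, the sodium-calcium exchanger, Ezh2, Sirt1, Cav1 and the other 8 had none. Within 10 kb of a TSS, 0.622% of all genes were nearest to a peak. There 1 of the 14 genes, Camk2d, and 0 of the 33 genes on the endocytosis list were hit. With 2 genes, and a list chosen with earlier results of these data known, the share describes the list and no more. Whether these genes or microRNAs changed in amount was not measured.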

How the data were processed

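Bowtie, HOMER and the mouse build mm9 are named per the submitters' processing notes; the sources used here give neither versions nor caller settings. HOMER's annotatePeaks.pl made the annotation, per the file headers, and its source table is named after the input. Chromatin was crosslinked with disuccinimidyl glutarate and then formaldehyde, per the labels' protocols, which can also capture factors bound through partners. The deposited peak score and the deposited focus ratio, a fraction, are the authors' values for each peak, from 1 library and not from pooled replicates. They were used only to describe and rank peaks within the list. Distances to the TSS are also the authors', per the file headers.

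From these, counts, medians, spacing and exact 95% intervals were computed with Python 3.11.15, pandas 2.3.3 and SciPy 1.17.1. Intervals cover only counting error. Read totals were not used here, so depth rests on the score steps. Neighbours were joined at 50 kb. Genes were matched by Entrez identifier to a RefSeq table of GRCm38.p6, which differs from mm9 and served for names and gene order; 15 of 16 genes looked up around Dnm3 matched. Sequences are from RefSeq. No genome sequence was used, so the intronic peaks and the last 90 bases of the Dnm3os peak were not searched for motifs. The search for the score step, the joining of neighbours and the motif search were checked on made-up data, and the other calculations were not. Every peak of the locus was named, with list genes nearest to a peak, the 2 hosts with the most intronic peaks, and neighbours. Other genes were named to complete a count. The members and lists were chosen with earlier results of these data known.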

Additional observations from a re-analysis of the deposited data

How the results depend on the processing

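The 7 summary values were recomputed under 32 alternatives in all, and 26 stayed within 1.5 times of a count or within the counting interval of a value. When peaks under the list's upper quartile of score were dropped, 4 peaks of the locus were left and its density was 52.0 times that of chromosome 1. With the stretch widened by 250 kb on each side it was 12.3 times, against 21.1 as reported. The largest group of neighbours fell to 2 peaks when they were joined at 10 kb or 25 kb. Within 10 kb of a TSS, 0 of 33 genes on the endocytosis list and 1 of 14 microRNA target genes were near a peak. The share over all genes was 0.622%. Counting genes that hold a peak as well gave 2 genes on the endocytosis list. Dnm3 was the one added, a hit that the choice of the stretch had fixed. No paired analysis was possible because 1 library gave all peaks. If a score step is 1 tag, each score of the locus rests on 10 to 18 tags. No replicate shows how far the peaks recur.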

Other observations

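Genes named as opposite-strand transcripts of another gene were nearest to 10 peaks in all, from 8 genes, Dnm3os included. The scores of these peaks ran from 12.3 to 23.3. Of the 10 peaks 7 were intronic, against 40.8% of the whole list, and 1, that at Dnm3os, carried the promoter annotation, against 3.24%. The 9 others lay 6.20 to 240 kb from the TSS. Bcas3os1 and Arhgap15os each had 2 peaks, the higher of 23.3 in both cases. All 8 genes were picked by name as transcripts opposite another gene, so peaks inside a gene came partly with that choice.

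MicroRNA genes were nearest to 39 peaks, of which 21 lay within 100 kb and 20 in introns. Over the whole list 40.8% of peaks were intronic and the median distance to the TSS was 83.4 kb. None of the 39 lay within 1 kb of the microRNA's own start. The peak at Dnm3os is not among the 39, since Dnm3os was its nearest gene.

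TWIST1 is known in mouse as a regulator of Dnm3os. Twist1 was nearest to 0 peaks. Its relative Twist2, also on chromosome 1, was nearest to 2 intergenic peaks upstream, of 15.1 at 93656944 to 93657088 and of 13.7 at 93666914 to 93667058.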
